A study of Mus musculus with 8 samples.

Results

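The genes described are 9 core genes of the Notch signaling pathway, namely the receptors Notch1, Notch2 and Notch3, the ligands Jag1, Jag2 and Dll1, the target genes Hes1 and Hey1 and the DNA-binding factor Rbpj, together with Rbpjl, the paralog of Rbpj. They were chosen by name, and their probes were found through the RefSeq accession of each probe on the array. All 10 were on the array among 36799 genes and other targets, and all 10 were among the 23238 that passed the filter on dim probes and were tested.

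RNA came from the back skin epidermis of C57BL/6 mice at P0, the day of birth, in 4 EED cKO and 4 control samples that the labels call biological replicates. In EED cKO mice both Eed alleles are floxed and K14-Cre, which is active in the keratin 14-expressing cells of the skin epithelium, deletes them (K14-Cre; EED flox/flox). Eed encodes a subunit of Polycomb repressive complex 2 (PRC2), which places the repressive H3K27me3 mark on histones. The labels name the controls only as control or CTL, so their alleles are not given. For PCR on epidermal RNA of the same genotypes the study names siblings without the Cre as controls, and whether this holds for the arrays is not stated, nor is whether a sample was 1 animal or a pool. Each sample was hybridized to a 2-color Agilent array against a commercial RNA mix, Universal Mouse Reference RNA, and in both genotypes the dyes were swapped between replicates, with the sample in Cy3 for numbers 1 and 3 and in Cy5 for numbers 2 and 4. Values below are log2 ratios of sample over reference, so a value of 0 means equal signal in both, and values of different genes are not set against each other.

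Notch receptors are cut after binding a ligand of the Jagged or Delta-like family on a neighboring cell, and the freed intracellular domain enters the nucleus, where it joins RBPJ and a Mastermind coactivator on DNA and turns on genes such as Hes1 and Hey1. Without the intracellular domain RBPJ recruits corepressors to the same sites. In the epidermis Notch signaling promotes the step from basal to suprabasal keratinocytes. RBPJL binds the same DNA letters as RBPJ but does not bind the Notch intracellular domain, and it is known from the acinar cells of the pancreas, where it is part of the PTF1 complex.

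In EED cKO epidermis Rbpjl was 3.16-fold higher than in control, with no overlap between genotypes. The receptors Notch2 and Notch3, the ligands Jag1, Jag2 and Dll1, and Rbpj were lower, by a log2 fold change between -0.60 (Dll1) and -0.29 (Rbpj). Notch1, Hes1 and Hey1 did not pass the test. Of the 10 genes, 7 thus had a limma adjusted p below 0.05, where 21.7% of all tested genes and targets did. 6 were lower, where 9.91% of all tested were, and 1 was higher, where 11.8% were. Among the 14986 tested genes with a symbol, 25.8% were called, 2002 of them lower and 1864 higher. Rbpjl alone was also at least 2-fold higher, as were 1.1% of all tested. In 3 of the 10, Jag1, Dll1 and Rbpjl, the values of the genotypes did not overlap, as in 17.1% of all tested. The median log2 fold change was -0.33 over the 10 genes and 0.02 over all tested.

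As a check of the labels, Eed had a log2 ratio of -1.80 ± 0.17 (SD, n = 4) in EED cKO and -0.35 ± 0.13 in control, and differed by -1.46 on the log2 scale (standard error, SE, 0.09, limma adjusted p = 2.12e-05). The share of spots with a sample signal well above background ran from 51.5% to 65.5% over the arrays, whose number limits the precision. All arrays lay on 1 slide, each genotype in a row of its own, so that slide row and genotype cannot be told apart. The reference RNA did not vary between arrays, and its signal did not pass the test between genotypes for any of the 10 genes (log2 differences from -0.13 for Notch2 to 0.21 for Notch1), while it did for 114 of 23238 genes and targets. The mean log2 ratio of 4 Y-linked genes was 1.19 and 1.03 in control replicates 2 and 3 and lay between -1.51 and -1.31 on the other arrays, so that counts are also given without these controls. RNA was taken from whole epidermis, in which fewer cells of a type and less RNA per cell cannot be told apart.

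The 6 basal epidermis markers and the 9 suprabasal ones were well above background on all 8 arrays. Of the basal markers, Itga6, Itgb4 and Col17a1 were lower in EED cKO (log2 fold changes -0.74, -0.51 and -0.33), while Krt5, Krt14 and Trp63 did not pass the test. The mean of the basal markers ranged from 2.30 to 2.69 in EED cKO and from 2.46 to 2.99 in control, and that of the suprabasal markers from 3.92 to 4.51 and from 3.75 to 4.45, with 0 of 9 suprabasal markers past the limma threshold. All 6 Merkel cell markers were higher in EED cKO (mean -0.95 to -0.82 against -1.67 to -1.53). Of these, Sox2 was well above background on 4 EED cKO and 0 control arrays, and Atoh1 and Isl1 on 4 and 2. Sox2, Atoh1 and Isl1 thus passed the filter only through the EED cKO arrays. The part of cell composition in the values below was not tested beyond 1 fit with the basal marker mean as a covariate, which is given with the counts.

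Promoter windows of RefSeq (build GRCm38.p6), from 250 bases before to 50 bases after an annotated start, were listed for 8 of the 10 genes. They were searched on both strands for the letters that RBPJ is known to bind, GTGGGAA, and for the shorter TGGGAA that lies inside them. The window of Rbpjl (chr2:164402944-164403243, plus strand) held GTGGGAA 1 time, 105 bases before the start on which the window is set and after the first annotated start of the gene. The windows of Rbpj held TGGGAA at 2 places, and no base of these windows lies before the first annotated start of that gene. The letters are shown because both paralogs are known to bind them. Capitals mark the match, with 6 bases on each side, and the lines give Rbpjl (chr2:164403083-164403101) and then the first (chr5:53590191-53590208) and second (chr5:53590275-53590292) match of Rbpj, all on the plus strand. The last match reads the letters on the opposite strand.
Rbpjl: actgccGTGGGAAgcctac
Rbpj, first match: aaaggcTGGGAAcccgcg
Rbpj, second match: cgcattTTCCCAggaccc
GTGGGAA was found in 6.38% of all 32851 windows and TGGGAA in 25.6%. The windows of Notch1, Notch2, Notch3, Jag1, Jag2 and Dll1 held neither. For Jag2, and for a window of Dll1, no base of the window lies before the first annotated start of the gene.

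The gene with the largest change is shown with the 137 bases that precede its first annotated start, taken from the same window (chr2:164402944-164403080, plus strand). The capital letters mark its 6 CG dinucleotides.
Rbpjl, upstream: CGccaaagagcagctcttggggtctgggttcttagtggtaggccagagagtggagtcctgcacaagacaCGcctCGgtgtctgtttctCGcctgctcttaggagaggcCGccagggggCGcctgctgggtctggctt
The match above lies after these bases. No binding or histone mark data were analysed here, and the letters are a description of the window.

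Rbpjl separated the genotypes on every array. Its log2 ratio was 1.98, 2.20, 2.02 and 1.68 in EED cKO replicates 1 to 4 and 0.27, 0.37, 0.72 and -0.12 in control replicates 1 to 4. The lowest EED cKO value thus lay above the highest control value. The means were 1.97 ± 0.21 (SD, n = 4) and 0.31 ± 0.35, a log2 fold change of 1.66 (95% interval 1.30 to 2.01, SE 0.16, limma adjusted p = 0.000278) or 3.16-fold (2.47 to 4.03).

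The rise was also seen in the signal before any normalization. The sample signal of the Rbpjl probe minus its local background was 227.5, 432, 241 and 210 intensity units in EED cKO and 42, 102, 101 and 49 in control, while the reference RNA on the same spots gave 68 to 125. On all 8 arrays the probe's sample signal was well above background, and the control signal was therefore low but measured. Within Cy3 arrays the log2 difference was 1.5, within Cy5 arrays it was 1.81, and between samples of the same replicate number it was 1.71, 1.82, 1.30 and 1.80. An exact two-sided permutation test over the 8 arrays gave p = 0.0286, the smallest value that 4 against 4 allows. The log2 fold change was 1.86 without background correction and 2.13 with the scanner's own log ratio.

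**Figure D1:**
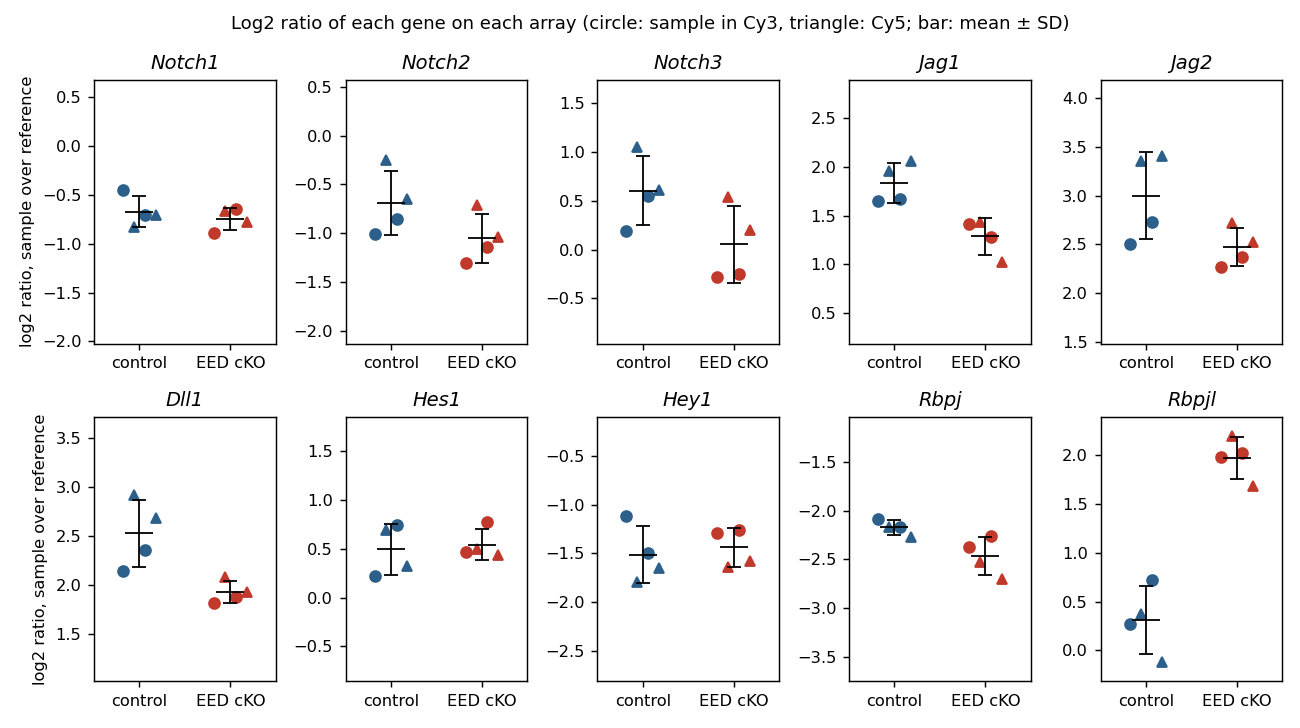
Log2 ratio of sample over reference RNA (y axis, no unit; every panel spans the same range of log2 units) for each of the 10 genes in control (blue) and EED cKO (red) epidermis. Circles are arrays with the sample in Cy3, triangles in Cy5, and bars show the mean and SD of 4 arrays. Rbpjl in EED cKO sits between 1.68 and 2.20, above all control arrays, while the points of Notch1, Hes1 and Hey1 overlap.

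Since Rbpjl is known from pancreatic acinar cells, other acinar markers were examined. Of 12 such genes, Cela2a, Cpa1 and Pnlip were not well above background on any array, and Ptf1a, the partner of RBPJL in the PTF1 complex, did not pass the filter. Among the 7 tested, 3 were higher in EED cKO, beside 11.8% of all tested genes and targets. Among these 3 were Cela1 (log2 fold change 0.34, limma adjusted p = 0.00745) and Ctrb1 (0.32, limma adjusted p = 0.0213), which encode digestive proteases. Bhlha15, Cel, Ctrl and Nr5a2 did not pass the test. The mean log2 ratio of all 12, those that did not pass the filter included, lay between 0.09 and 0.12 in EED cKO and between -0.07 and 0.07 in control.

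Profiles over the 8 arrays were compared by the root mean square difference of log2 ratios centered on each gene's own mean. The comparison covered the 14974 tested genes with a symbol and a value on every array, Rbpjl included. Among the 5 genes most like Rbpjl were Ccl6 (0.121), Crnn (0.190), Akr1c18 (0.211) and Cers4 (0.216). Each of these had a log2 fold change between 1.42 (Crnn) and 1.92 (Akr1c18). This likeness includes the difference between genotypes and is a description.

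Of the receptors, Notch3 and Notch2 were lower in EED cKO and Notch1 did not pass the test. The log2 ratio of Notch3 was -0.28, 0.54, -0.25 and 0.20 in EED cKO replicates 1 to 4 and 0.19, 1.05, 0.55 and 0.61 in control. The genotypes overlapped, since EED cKO replicate 2 exceeded control replicate 1, but in each of the 4 replicate numbers the EED cKO value was lower, by 0.41 to 0.80. Notch3 thus differed by -0.55 on the log2 scale (SE 0.13, limma adjusted p = 0.0153, exact permutation p = 0.0857 without regard to dye). The call was lost without EED cKO replicate 4 (-0.50) or control replicate 2 (-0.47).

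Notch2 had log2 ratios of -1.31, -0.71, -1.15 and -1.04 in EED cKO and -1.01, -0.25, -0.86 and -0.65 in control. The ranges overlapped, and EED cKO was lower by 0.29 to 0.46 in all 4 replicate numbers. Its log2 fold change of -0.36 (SE 0.11, limma adjusted p = 0.0456, exact permutation p = 0.143) passed the threshold narrowly. It was called in 3 of the 8 fits that each left out 1 array, namely those without EED cKO replicate 2, control replicate 1 and control replicate 4. A second, dimmer Notch2 probe of the same transcript, well above background on 3 EED cKO arrays and 1 control array, had a log2 fold change of 0.16 (limma adjusted p = 0.296), so that the probes of Notch2 disagree in sign. With median centring in place of loess the value was -0.55 and did not pass the test.

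Notch1, the receptor most often linked to epidermal differentiation, had log2 ratios of -0.89, -0.67, -0.64 and -0.77 in EED cKO and -0.45, -0.83, -0.70 and -0.70 in control. These ranges overlapped, with EED cKO replicate 1 below every control and control replicate 1 above every EED cKO value, and the EED cKO value was lower in 2 of the 4 replicate numbers and higher in 2. Its log2 fold change was -0.07 (SE 0.10, limma adjusted p = 0.631), with a 95% interval from -0.29 to 0.14. The Notch1 probe was dim, with a sample signal of 39 to 97 intensity units above local background. With the scanner's own log ratio the value was -0.21 (SE 0.15) and did not pass the test. A second Notch1 probe was well above background on 2 control arrays and no EED cKO array and was not tested. The profiles nearest to Notch1 were those of 5830454E08Rik (0.0554), Cd80 (0.0554) and Aldoart2 (0.0596).

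Jag1, Jag2 and Dll1 were all lower in EED cKO, and these calls held in each of the 8 fits that left out 1 array. Dll1, the Delta-like ligand of the set, is measured by 10 spots per array. Its log2 ratio was 1.81, 2.08, 1.87 and 1.93 in EED cKO and 2.14, 2.92, 2.35 and 2.69 in control. Every EED cKO value lay below every control value. Dll1 had a log2 fold change of -0.60 (SE 0.10, 95% interval -0.84 to -0.37, limma adjusted p = 0.00462), and the exact permutation p was 0.0286. Dll1 in control was thus 1.52-fold higher than in EED cKO. With the scanner's own log ratio the difference was -0.37 and still passed the test.

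Jag1 gave log2 ratios of 1.41, 1.43, 1.28 and 1.03 in EED cKO and 1.65, 1.96, 1.66 and 2.05 in control. Here too the genotypes did not overlap. Jag1 differed by -0.54 (SE 0.12, limma adjusted p = 0.0125, exact permutation p = 0.0286), and the difference was larger within the Cy5 arrays (-0.78) than within the Cy3 arrays (-0.31), a difference that was not tested.

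Jag2 gave 2.27, 2.72, 2.37 and 2.52 in EED cKO and 2.51, 3.35, 2.73 and 3.40 in control. The ranges overlapped because control replicate 1 lay among the EED cKO values. EED cKO was lower in all 4 replicate numbers, by 0.24 to 0.88. For Jag2 the log2 fold change was -0.53 (SE 0.11, limma adjusted p = 0.00953, exact permutation p = 0.114), with -0.75 within Cy5 and -0.30 within Cy3 arrays.

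**Figure D2:**
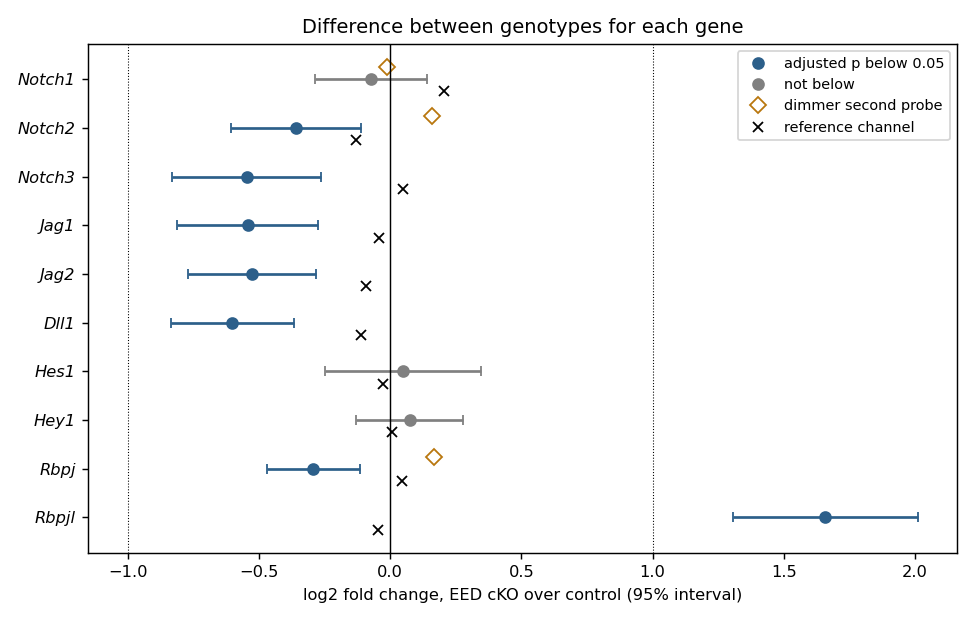
Log2 fold change of EED cKO over control for each gene (x axis, log2 units) with its 95% interval from the limma fit. Diamonds are dimmer second probes of the same gene and crosses the difference of the reference channel between the same arrays. The intervals of Notch2, Notch3, Jag1, Jag2, Dll1 and Rbpj lie below 0, that of Rbpjl runs from 1.30 to 2.01, and the second probes of Notch2 and Rbpj lie above 0.

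The target genes Hes1 and Hey1, which encode transcriptional repressors, did not pass the test. Hes1 had log2 ratios of 0.47, 0.50, 0.77 and 0.44 in EED cKO and 0.22, 0.69, 0.75 and 0.32 in control. The values overlapped, and the log2 fold change was 0.05 (SE 0.13, 95% interval -0.25 to 0.35, limma adjusted p = 0.834). The interval leaves room for a lower as well as a higher level in EED cKO, from -0.25 to 0.35. Hes1 was higher in EED cKO in 3 of the 4 replicate numbers, and the sign of its difference turned under 4 of 25 alternative settings. The profiles nearest to Hes1 were 1500015A07Rik (0.0689), Thap3 (0.0826) and Mllt10 (0.0915).

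Hey1 was a dim probe, with a sample signal of 17.5 to 41 intensity units above local background. Its log2 ratios were -1.29, -1.64, -1.26 and -1.58 in EED cKO and -1.11, -1.80, -1.49 and -1.65 in control. Their ranges overlapped, with a log2 fold change of 0.07 (SE 0.09, 95% interval -0.13 to 0.28, limma adjusted p = 0.606). Its sign turned under 5 of 25 alternatives, median centring among them.

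Rbpj, the factor on which the receptors' signal converges, had log2 ratios of -2.37, -2.52, -2.26 and -2.70 in EED cKO and -2.09, -2.17, -2.17 and -2.27 in control. Only EED cKO replicate 3 (-2.26) and control replicate 4 (-2.27) crossed. On this probe the log2 fold change was -0.29 (SE 0.08, limma adjusted p = 0.0278, exact permutation p = 0.0571). A second Rbpj probe, dimmer but well above background on all 8 arrays, gave -0.62, -1.01, -0.55 and -0.92 in EED cKO and -0.61, -1.22, -0.81 and -1.15 in control, a log2 fold change of 0.17 (limma adjusted p = 0.137). This second probe did not pass the test, and its sample signal was 35 to 60 intensity units above local background. The probes of Rbpj thus differed in sign, and with the median over probes the value was -0.06. Median centring in place of loess gave -0.48 for the brighter probe, which did not pass the test. The call was also lost without EED cKO replicate 1 (-0.29) or 4 (-0.24) or control replicate 2 (-0.25) or 4 (-0.29), with values near the reported one.

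**Figure D3:**
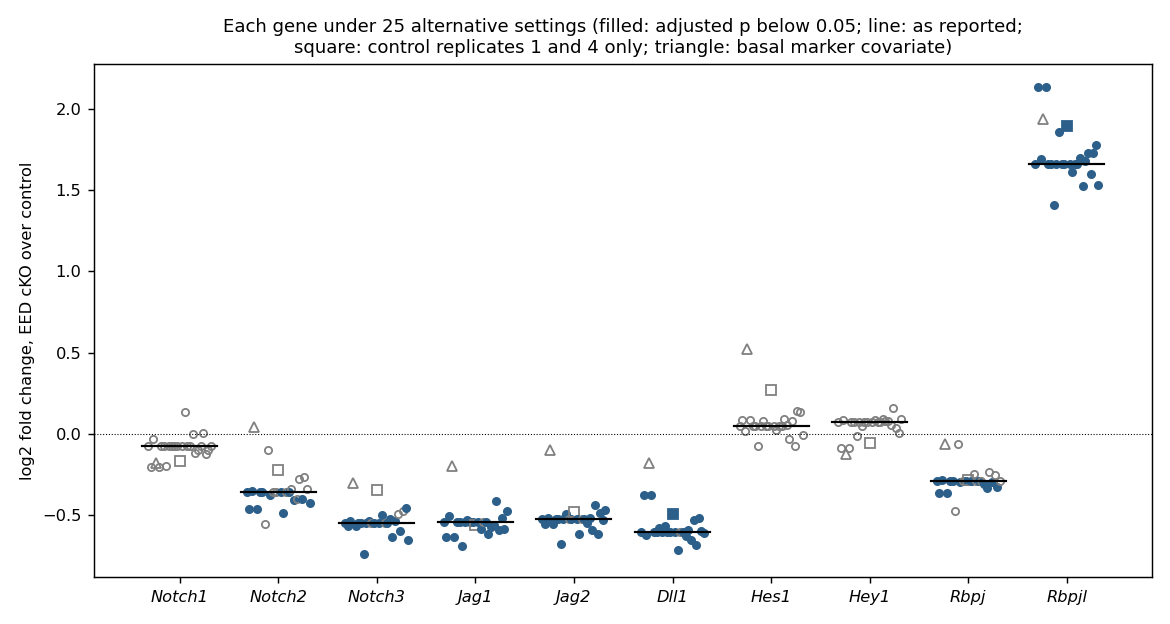
Log2 fold change of EED cKO over control (y axis, log2 units) for each gene under the 25 alternative settings, with the reported value as a line. Filled points had an adjusted p below 0.05. Rbpjl stayed between 1.41 and 2.13, Dll1 was called in 23 of 25 settings, and Notch1, Hes1 and Hey1 were called in none.

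The count of 6 lower genes depended on which arrays and terms entered. With control replicates 1 and 4 as the only controls, a setting chosen after seeing the data, 1 of the 10 genes was lower at the threshold (Dll1, -0.49, limma adjusted p = 0.0289), where 4.11% of all tested were, and Rbpjl was higher (1.89, limma adjusted p = 0.000283). Jag1 and Jag2 had -0.56 and -0.48 there and missed the threshold (limma adjusted p = 0.0512 and 0.0623). Without EED cKO replicate 4 or without control replicate 2 the count was 3, where 5.35% and 4.9% of all tested were lower. With the basal marker mean as a covariate, also chosen after seeing the data, 0 genes were lower in the limma fit. In that fit Jag1 had -0.20, Jag2 -0.10 and Dll1 -0.18, Rbpjl had 1.94 (limma adjusted p = 0.0514), and 0.43% of all tested genes and targets passed the threshold. By the methods' t-test, 4 of the 10 genes had an unadjusted p below 0.05 (Jag1, Dll1, Rbpj and Rbpjl). The share of all tested below that unadjusted p was not counted, so this count cannot be set against it. Rbpjl alone passed after Benjamini-Hochberg adjustment, where 3.86% of all tested did, and it also met the 2-fold limit.

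The rest of the pathway was described with 64 further genes, of which 62 were on the array and 56 were tested. 15 were lower in EED cKO (26.8%, beside 9.91% of all tested) and 2 were higher (beside 11.8% of all tested), while 39 did not pass the test. Of the 14986 tested genes with a symbol, 2002 were lower and 1864 higher. None changed 2-fold, and the median log2 fold change was -0.19. The list was written with earlier results of these data known, so its counts are a description.

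Among the other receptors and ligands, Dlk1, a ligand-like protein without the domain by which Delta-like ligands activate receptors, was higher (0.45, SE 0.08, limma adjusted p = 0.00666). Notch4, Dll3 and Dlk2 did not pass the test, and Dll4 was not well above background on any array. Neurl1a, an E3 ubiquitin ligase that acts on ligands, was higher (0.43, SE 0.09, limma adjusted p = 0.0121), and Mib1, Mib2 and Neurl1b did not pass the test.

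Of the enzymes that modify or cut the receptors, Pofut1, which adds O-fucose to them, was lower (-0.37, limma adjusted p = 0.0277), with 4 other glycosyltransferases not passing the test. Adam10, the protease of the first cut after ligand binding, was lower (-0.38, limma adjusted p = 0.0172), and the other 7 tested proteases and γ-secretase subunits did not pass. Of 9 tested genes of receptor turnover and regulation, 3 were lower, beside 9.91% of all tested. They were Dtx2 (-0.56), Numbl (-0.52) and the E3 ligase Itch (-0.41). Of the lower genes of these roles, Numbl was called in all 8 fits that each left out 1 array. Adam10 was called in 6 of them, Dtx2 in 5, Itch in 4 and Pofut1 in 3. Nrarp, a feedback inhibitor of the pathway, had -0.60 with a wide SE of 0.19 and did not pass the test (limma adjusted p = 0.0524).

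The nuclear factors also held lower genes, where 9.91% of all tested were lower. The Mastermind coactivators Maml3 (-0.59, limma adjusted p = 0.00309) and Maml1 (-0.50, limma adjusted p = 0.00918) were lower. So were the acetyltransferases Kat2a (-0.34) and Ep300 (-0.28). Of 10 tested genes of the DNA-binding core and its coactivators 5 were thus lower, Rbpj included, and 1, Rbpjl, was higher. With the median over probes of a gene, Maml3 had -0.33 and still passed the test. Kat2a had -0.17 there and did not pass (limma adjusted p = 0.0753). Ep300 was called in 2 of the 8 fits that each left out 1 array. Of 15 corepressors, 6 were lower, among them Tle3 (-0.79, limma adjusted p = 0.0034), L3mbtl3 (-0.60), Spen (-0.57), Ctbp1 (-0.50) and Ncor1 (-0.44). With the median over probes Ncor1 had -0.29 and still passed the test. The other 9 corepressors did not pass the test, and the median log2 fold change of the 15 was -0.08.

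Of the Hes and Hey family, 5 were tested (Hes1, Hes2, Hes6, Hes7 and Hey1), and 0 passed the limma threshold, with log2 fold changes between -0.07 and 0.13. Hes3, Hes5, Hey2 and Heyl did not pass the filter on dim probes. Over all roles, 14 of the 56 genes had values that did not overlap between genotypes, 10 lower and 4 higher in EED cKO, beside 17.1% of all tested genes and targets, and 3 of these 14 did not pass the limma threshold.

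**Figure D4:**
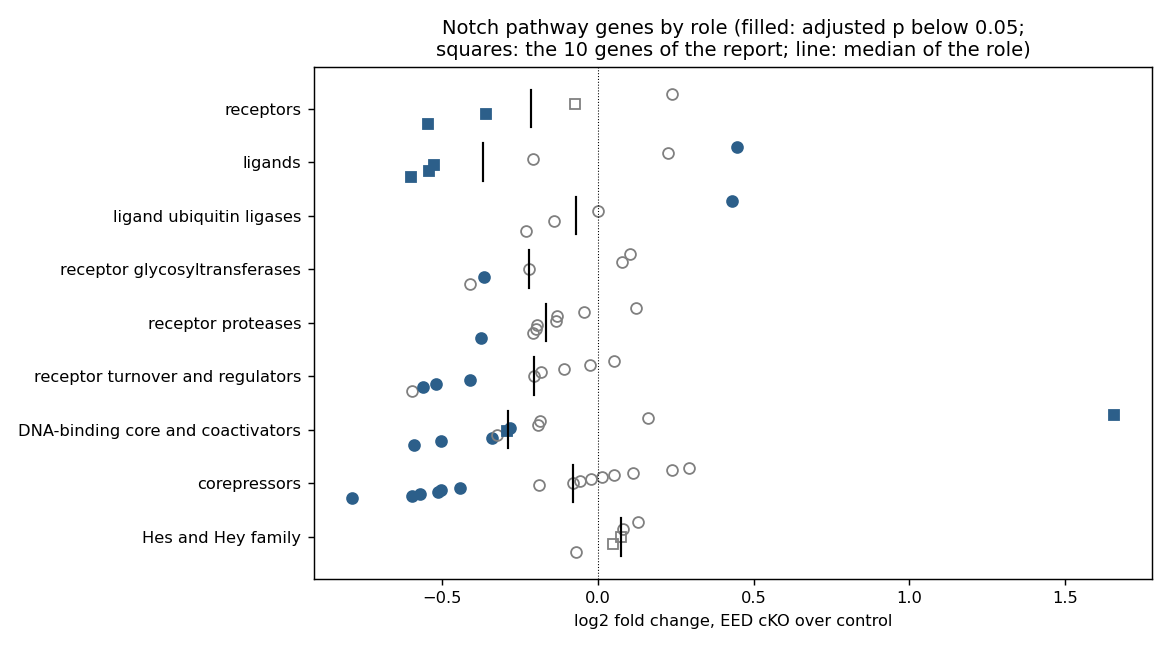
Log2 fold change of EED cKO over control (x axis, log2 units) for the 66 tested Notch pathway genes, grouped by role (y axis). Squares are the 10 genes described here and circles the other 56, filled points had an adjusted p below 0.05, and vertical lines are the median of each role. Rbpjl at 1.66 lies apart from the rest, and no point of the Hes and Hey family is filled.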

How the data were processed

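P0 epidermal RNA of 4 EED cKO and 4 control samples was measured on 2-color Agilent arrays, with genotype and dye taken from the sample labels. The authors extracted the arrays with Agilent Feature Extraction 12.0.1.1 and deposited, for each array, median spot and local background intensity per channel, not normalized, and a log10 ratio that the software had background-subtracted and dye-normalized. A series-wide table of log2 ratios, sample over reference, was deposited as well, and its values matched the processed signals of the same arrays to within 7.33e-06 for probes with 1 spot. The plan was written for mean signals, and medians were used because the columns used here hold those.

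Here the intensity was corrected with normexp (offset 50), which draws ratios of dim spots toward 0, and each array was normalized by loess. Outlier-flagged spots were dropped, none was saturated, and swapped arrays were turned to sample over reference. Probes were named through RefSeq accessions (28026 of 29796 matched). A gene was represented by its brightest probe and tested if its sample signal was well above background in 3 or more of the 4 samples of a genotype. Genotypes were compared with limma 3.58.1 in R 4.3.3 (genotype plus dye, Benjamini-Hochberg adjustment over 23238 genes and targets, called below 0.05). The fit was tested on simulated data. For single genes an exact two-sided permutation test over arrays was added. Deviations of samples with the same replicate number from their group means correlated across genes (0.489, 0.679, 0.328 and 0.365). Such samples also share the dye and the slide column, and neither was removed from these deviations. The correlations therefore cannot show whether the number pairs the samples, and its meaning is not given. Differences within a replicate number are thus matched for dye and slide column, and any further pairing is an assumption.

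The genes described and the lists were chosen with earlier results of these data known. Named were the 10 genes with all their probes, other pathway genes past the threshold, Eed, and the nearest profiles of Rbpjl (5), Notch1 (3) and Hes1 (3), except for a few genes that are not reported here. Markers and further pathway genes were named after their values were seen. The marker lists were basal, suprabasal, hair follicle, Merkel, endothelial, dermal fibroblast, immune, melanocyte and pancreatic acinar. Alternatives covered background correction, normalization, filters, probes per gene, the dye term, the methods' t-test, the replicate block, weights per array, a trend with intensity and each array left out. The controls without high Y-linked signal and the basal marker covariate were chosen after seeing the data.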

Additional observations from a re-analysis of the deposited data

Results flagged for a closer look

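Among 56 sets of 4 arrays of the named genes, 4 held an array apart from the other 3, where chance sets apart about 1 in 20 sets. All were in EED cKO and none among the 10 genes described first. In replicate 2, Itch had a log2 ratio of -0.10 against -0.54 to -0.47 in the other 3, Dtx2 had 0.88 against 0.49 to 0.51, and Spen had -1.25 against -1.55 to -1.50. In replicate 4, Kat2a had -1.31 against -1.18 to -1.17. Each of these 4 genes was lower in EED cKO in all 4 replicate numbers.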

How the results depend on the processing

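Rbpjl was called in 24 of 25 alternatives (log2 fold change 1.41 to 2.13, and 1.52 to 1.78 when 1 array was left out) and missed the threshold with the basal marker covariate (1.94). Of the 10 genes, 6 were lower as reported, 2 without the dye term, 0 by the methods' t-test after adjustment, 1 with control replicates 1 and 4 as the only controls, 0 with the basal marker covariate, which left 100 calls among all tested, and 3 to 6 when 1 array was left out. At an unadjusted p below 0.05 the t-test had 3 lower, and the share of all tested at that limit was not counted. The lower count was 4 with median centring and 4 with the median over probes. The median log2 fold change of the 10 genes was -0.52 with median centring. It was -0.087 with the median over probes and -0.11 with the covariate. The higher count was 1, and 0 with the covariate. Of the other pathway genes, 15 were lower as reported, 8 without the dye term, 4 by the t-test, 7 with the 2 controls, 0 with the covariate, and 9 to 17 when 1 array was left out (9 without control replicate 2). The count of higher ones was 2 as reported, 0 with median centring, the t-test, the 2 controls or the covariate, 1 with an intensity trend, 4 with the median over probes, and 2 to 3 when 1 array was left out. With the replicate block the counts were 6 and 1 for the 10 genes and 18 and 3 for the others, and it changed no call among the 10.

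Signs turned for Notch1 (0.13 in the sample channel alone, and -0.12 to 0.0019 when 1 array was left out), for Hes1 (-0.077 with median centring, and -0.073 to 0.14 when 1 array was left out) and for Hey1 (-0.0852 with the Feature Extraction ratio or the deposited table, -0.011 with median centring, -0.056 with the 2 controls and -0.13 with the covariate). With the covariate the sign also turned for Notch2 (0.042) and Pofut1 (0.040). The cause was not tested. Over all tested genes and targets the t-test adjusted gave 896 calls against 5033, no dye term 2360, median centring 2555 and the 2 controls 2582. Leaving out control replicate 2 gave 2728, EED cKO replicate 4 gave 2955 and EED cKO replicate 3 gave 3345. Aquantile normalization leaves the ratios as they are. Signals near background limit Hey1 and the second probes of Notch1 and Notch2. The brighter Notch1 probe and the second Rbpj probe were dim as well.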

Other observations

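Markers of other cell types were measured on the same arrays. Of the hair follicle markers, 2 were lower and 2 higher in EED cKO among 8 tested. Of the melanocyte markers 1 of 6 was lower, Sox10. Among markers of cells outside the epidermis, 2 of 3 tested endothelial markers were higher (Pecam1 and Kdr), while Cdh5, Esam, Tek and Tie1 were not well above background on any array. 1 of 6 tested fibroblast markers was higher (Lum), with Dpt not well above background on any array, and 2 of 6 tested immune markers were higher. The mean log2 ratio of the endothelial list lay between 0.24 and 0.38 in EED cKO and between 0.10 and 0.11 in control. Their part in the values of the Notch genes was not tested.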
